A study of Homo sapiens with 6 samples.

Results

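The clustered and linker histone genes were followed in OVCA432 cells, an established line from human high grade serous ovarian carcinoma, after exposure to MFAP5 (microfibrillar associated protein 5, a secreted protein of the extracellular matrix). A probe set was included when the platform annotation gave it 1 gene symbol alone and that symbol began with H1- and a digit, or with H2AC, H2BC, H3C or H4C and a digit. This took in 58 of 54613 probe sets and 50 of the 19775 genes that have a probe set of their own. All 50 symbols were found unchanged in the RefSeq gene table. They comprised 46 protein coding genes, the 3 pseudogenes H1-9P, H2AC5P and H4C10P, and H1-10-AS1, an antisense RNA that meets the rule by its letters and encodes no histone. By family there were 11 genes of H1, 9 of H2A, 14 of H2B, 7 of H3 and 9 of H4, with 42 genes on chromosome 6, 2 on chromosome 1 and 6 elsewhere.

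The 3 MFAP5 samples received recombinant human MFAP5 at 200 ng/mL, and the 3 control samples the same amount of its solvent. Both groups had been without serum for 24 h beforehand, remained in serum-free medium and were harvested 48 h after the addition. The 6 samples were prepared independently from 1 cell line and hybridised to 1 Affymetrix U133 Plus 2.0 array each. The comparison asks which histone transcripts differ in level between cells that received the protein and cells that received solvent.

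Core histones of the H2A, H2B, H3 and H4 families form the nucleosome, the particle around which DNA is wound, and linker histones of the H1 family bind where the DNA enters and leaves it. The clustered genes are transcribed mainly in S phase, when new chromatin is assembled, and most of their mRNAs end in a stem-loop rather than a poly(A) tail. Some of them also give polyadenylated transcripts, and amplification kits that prime from the tail read those forms more readily. In RNA from a whole culture, fewer cells making a transcript and less of it per cell cannot be told apart.

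The deposited values are MAS5 signals, a linear brightness per probe set and array, scaled to a trimmed mean of 500.07 on each of the 6 arrays. The brightest of 27 control probe sets for Bacillus RNA, which the cells do not contain, had signals of 26.4 to 55.9, and 27209 to 36073 probe sets exceeded it on each array. All 10 markers of serous ovarian epithelium were above that control on every array, with sums of 98267 to 105756 in MFAP5 and 87284 to 97640 in control samples. Of the other cell types, 2 of 7 fibroblast markers (COL1A1 and COL1A2), 0 of 4 leukocyte markers and 0 of 3 endothelial markers were above it on all arrays. Summed signals were 274 to 375 in MFAP5 and 264 to 315 in control samples for fibroblasts, 85.6 to 139.6 and 46.7 to 130.5 for leukocytes, and 172 to 224 and 125 to 197 for endothelium. The 3′ to 5′ ratio of GAPDH differed by 0.03 and that of ACTB by -0.01 on the log2 scale, MFAP5 minus control (exact permutation p = 0.5 and 0.6, n = 3 each, where 0.1 is the smallest possible). With 3 arrays a group, their number limits how precise each value can be.

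Promoters are shown for the 3 histone genes that passed the test and for H2BC12, the brightest histone probe set. Each sequence is the 250 bases before the transcription start in RefSeq (GRCh38.p14), read 5′ to 3′ on the gene's own strand. Capitals mark matches on either strand to TATAAA (the TATA box), CCAAT, ATTTGCAT (the octamer known from H2B promoters) and AAACACA (the element known from H1 promoters).
H1-2, chr6:26056471-26056720, minus strand: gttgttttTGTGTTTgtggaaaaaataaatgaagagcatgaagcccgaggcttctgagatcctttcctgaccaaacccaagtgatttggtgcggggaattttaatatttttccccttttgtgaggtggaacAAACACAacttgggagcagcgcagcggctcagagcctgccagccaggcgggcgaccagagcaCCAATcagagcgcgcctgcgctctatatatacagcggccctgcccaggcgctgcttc
H2AC25, chr1:228457874-228458123, minus strand: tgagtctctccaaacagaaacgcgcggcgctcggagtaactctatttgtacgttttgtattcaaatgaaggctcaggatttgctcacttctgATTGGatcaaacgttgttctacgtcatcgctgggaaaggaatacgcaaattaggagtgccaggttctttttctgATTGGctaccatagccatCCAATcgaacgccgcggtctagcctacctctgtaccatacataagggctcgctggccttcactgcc
H4C11, chr6:27823842-27824091, plus strand: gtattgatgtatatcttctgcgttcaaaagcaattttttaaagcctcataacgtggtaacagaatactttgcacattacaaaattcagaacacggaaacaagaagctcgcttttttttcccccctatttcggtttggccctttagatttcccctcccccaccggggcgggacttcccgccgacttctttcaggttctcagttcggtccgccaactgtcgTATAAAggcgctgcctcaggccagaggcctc
H2BC12, chr6:27146859-27147108, minus strand: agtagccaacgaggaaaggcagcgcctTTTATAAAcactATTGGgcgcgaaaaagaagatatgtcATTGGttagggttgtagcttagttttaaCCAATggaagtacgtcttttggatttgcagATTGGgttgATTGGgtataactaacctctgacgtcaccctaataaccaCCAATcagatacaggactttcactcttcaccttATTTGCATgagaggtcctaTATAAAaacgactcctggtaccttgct

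The promoter table held 47 promoters of 43 of the genes. CCAAT was found in 85.1% of them and in 32.0% of all 35116 promoters in the table, TATAAA in 63.8% and 10.7%, ATTTGCAT in 36.2% and 1.63%, and AAACACA in 14.9% and 4.82%. The families divided these motifs: ATTTGCAT occurred in 11 of 15 H2B and 6 of 8 H2A promoters and in 0 of the H1, H3 and H4 promoters, while AAACACA occurred in 7 of 10 H1 promoters and in 0 of the others. H4 promoters were the poorest in CCAAT, with 2 of 7. In the sequences printed, the H1-2 promoter held AAACACA on both strands and 1 CCAAT, that of H2AC25 held 3 CCAAT, and that of H4C11 had TATAAA at 31 bases before the start as its sole match. For H2BC12, which has 2 starts in RefSeq, the first is shown. It held ATTTGCAT at 46 and TATAAA at 27 bases before the start. A match describes letters in the window, and a missing match says nothing about the factors that bind there.

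Most histone transcripts were dim on these arrays. Probe sets entered the test when their mean log2 signal over all 6 arrays was at or above the median of the array, a signal of 53.7, and 20 probe sets of 18 histone genes did so. The other 38 probe sets, among them all those of 32 genes, had signals from 0.44 to 84.2 with a median of 17.0, and no probe set had passed through the mean of 1 group alone. Just inside the threshold lay H2AC17, H2AC4 and a probe set of H4C8, with mean signals of 61.0, 62.1 and 62.4. Just outside it lay H1-3, H4C5 and the second probe set of H2AC25, with 39.5, 45.4 and 52.4. The families were reached unevenly, with 2 of 11 H1 genes, 6 of 9 H2A, 7 of 14 H2B, 1 of 7 H3 and 2 of 9 H4 genes tested. Probe sets of the types _s_at and _x_at, whose probes can match several transcripts, made up 14 of the 58 and 12 of the 20 tested.

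**Figure D1:**
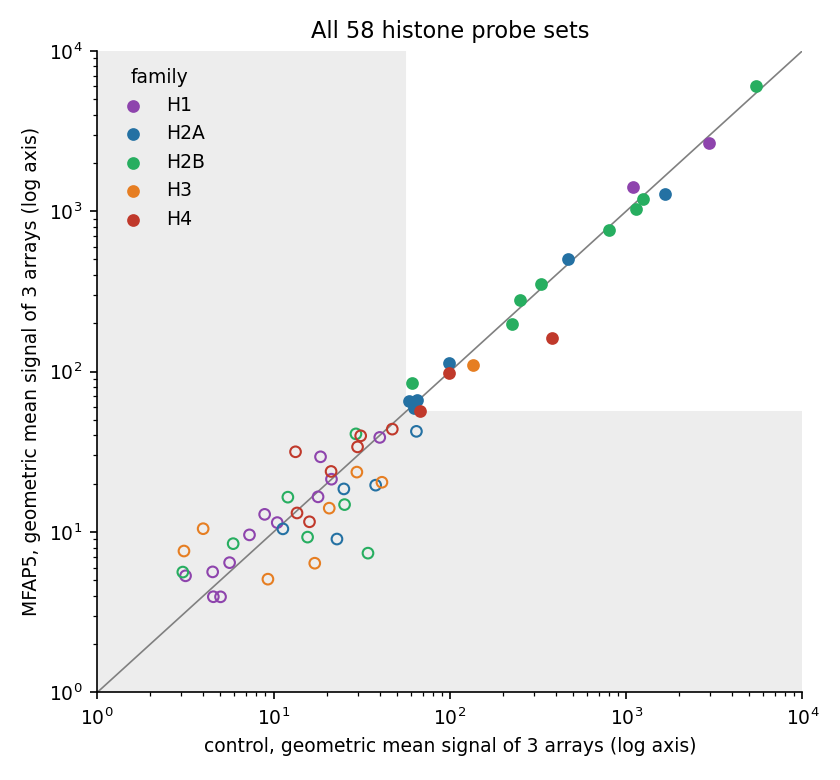
Geometric mean MAS5 signal of each of the 58 histone probe sets in MFAP5 samples (vertical axis) and in control samples (horizontal axis), 3 arrays each, both axes logarithmic. Filled points are the 20 tested probe sets, open points the 38 below the brightness threshold, and the grey areas reach to the highest signal of a Bacillus control probe set, 55.9; the dim points scatter widely about the diagonal and the bright ones lie near it, with H4C11 the farthest below it among the filled ones.

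With MFAP5, 1 histone gene was higher and 2 were lower, and the other 15 genes tested did not pass. H1-2, a linker histone, rose 1.30-fold. H2AC25, an H2A gene of the small cluster on chromosome 1, was 1.30-fold lower, and the probe set annotated to H4C11, an H4 gene on chromosome 6, was 2.36-fold lower. These were 3 of 20 probe sets (15.0%), against 25.2% of all 27307 probe sets tested (limma with Benjamini-Hochberg adjustment over all of them, adjusted p below 0.05). Of all those tested, 13.5% were higher and 11.8% lower. With the arrays centred on their medians these shares were 8.43% higher and 21.9% lower, and 4 histone probe sets were called, 1 higher and 3 lower. Counted by gene they were 3 of 18 (16.7%), against 29.9% of 12216 genes. The smaller share rests on 3 calls, and whether it differs from that of all genes was not tested. Above the 75% quantile of brightness 38.5% of all probe sets were called, and 12 of the 20 histone probe sets lay below it. The median difference of the 18 genes, MFAP5 minus control, was 0.01 on the log2 scale, and that of all genes -0.01. Groups without overlap between the 3 MFAP5 and 3 control signals were seen in 6 of the 20, against 41.0% of all probe sets tested.

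**Figure D2:**
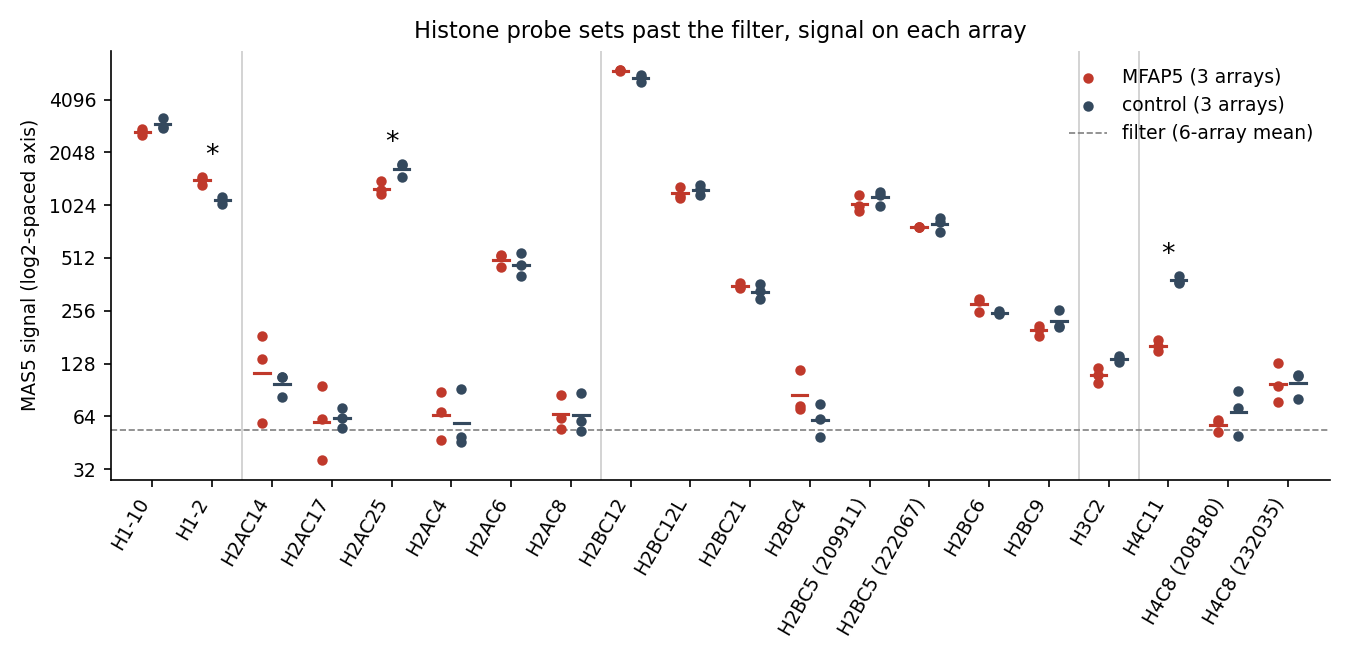
MAS5 signal on each array (vertical axis, log2 spacing) of the 20 tested histone probe sets, ordered by family, with the 3 MFAP5 arrays left of the 3 control arrays. Bars are geometric means, stars mark the 3 probe sets past the test and the dashed line is the brightness threshold of 53.7; the groups stand clearly apart for H4C11.

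Of the linker histones, H1-2 is one of the H1 genes of the chromosome 6 cluster that somatic cells use widely. It had signals of 1484, 1448 and 1329 in MFAP5 samples, against 1134, 1097 and 1045 in control samples. All 3 MFAP5 arrays lay above all control arrays, and the arrays within each group were close together. The difference was 0.38 ± 0.08 on the log2 scale (SE, limma adjusted p = 0.0067, n = 3 each), and the call was lost with centring on hybridisation controls (0.34, adjusted p = 0.142). H1-10, which lies outside the clusters on chromosome 3 and is transcribed through the cell cycle, had signals of 2778, 2564 and 2697 in MFAP5 samples, against 2828, 3204 and 2869 in control samples. The MFAP5 arrays were all below the control arrays, yet the difference of -0.15 ± 0.07 did not pass the test (limma adjusted p = 0.176, n = 3 each). The other 9 genes with an H1 symbol were below the brightness threshold on all their probe sets, among them H1-1, H1-3, H1-4 and H1-5 of the cluster.

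Among the H2A genes, which encode a core histone that pairs with H2B, 1 of 6 tested genes fell and 0 rose (limma, with 0 higher also at an unadjusted p below 0.05). H2AC25 had signals of 1178, 1404 and 1246 in MFAP5 samples, against 1480, 1756 and 1729 in control samples. The MFAP5 arrays were the 3 lowest, with MFAP5 replicate 2 not far under control replicate 1. The difference was -0.37 ± 0.10 (limma adjusted p = 0.0176, n = 3 each). It no longer passed when MFAP5 replicate 1 (adjusted p = 0.0525), MFAP5 replicate 3 (0.0526) or control replicate 2 (0.0701) was left out, with centring on hybridisation controls (0.0606) and without the intensity trend (0.0643). A second H2AC25 probe set, below the brightness threshold, had signals of 40.2, 40.6 and 46.8 in MFAP5 samples, against 71.8, 75.8 and 49.6 in control samples, again with all MFAP5 arrays lower. In RefSeq the gene lies next to H2BC26.

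The remaining H2A genes tested had no MFAP5 group apart from its control group. H2AC14 had the widest spread in this family, with signals of 183, 136 and 58.7 in MFAP5 samples, against 108, 108 and 82.2 in control samples. The MFAP5 arrays took both the highest and the lowest place. H2AC4, H2AC6, H2AC8, H2AC14 and H2AC17 had differences from -0.07 to 0.20 on the log2 scale and limma adjusted p from 0.649 to 0.968. H2AC6 was the brightest of them, at 503 ± 44 in MFAP5 and 473 ± 73 in control samples (mean ± SD, n = 3 each).

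Among probe sets annotated to 1 histone gene alone, that of the H2B gene H2BC12 was the brightest, followed by H1-10, H2AC25 and H1-2. A probe set shared by several H4 genes, described below, was brighter. In the H2B family 0 of the 8 probe sets of 7 genes passed limma's test after adjustment (1 had an unadjusted p below 0.05). H2BC12 had signals of 6022, 6012 and 5953 in MFAP5 samples, against 5659, 5529 and 5138 in control samples. All MFAP5 arrays were higher and nearly level, while the control arrays were more spread. The difference was 0.14 ± 0.06, with a 95% interval of 0.005 to 0.277 (limma adjusted p = 0.122, n = 3 each), and this was the probe set with an unadjusted p below 0.05. H2BC4 had the largest difference of the family, with signals of 73.3, 118 and 70.5 in MFAP5 samples, against 75.04, 61.9 and 49.0 in control samples. Its groups overlapped, and the difference of 0.47 ± 0.29 had a 95% interval of -0.18 to 1.12 (limma adjusted p = 0.269, n = 3 each).

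Other H2B genes lay between these in brightness. H2BC5, with 2 probe sets, averaged 1042 ± 109 in MFAP5 and 1137 ± 108 in control samples on the brighter one, and 768 ± 1.2 and 803 ± 75 on the other (mean ± SD, n = 3 each). H2BC12L, a copy on chromosome 21, averaged 1200 ± 95 in MFAP5 and 1252 ± 83 in control samples. H2BC21, on chromosome 1, averaged 353 ± 13 and 330.4 ± 33.2 in MFAP5 and control samples. With H2BC6 and H2BC9, these genes had differences from -0.18 to 0.16 and limma adjusted p from 0.411 to 0.684 (n = 3 each). Of the 8 H2B probe sets, 5 are of the _x_at type and 1 of the _s_at type, so some of these genes may share signal.

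H3 was represented in the test by H3C2 alone, 1 of several genes that encode the replication-dependent H3 protein. Because the probe set of H3C2 is of the _s_at type, RNA of other genes may add to its signal. The probe set had signals of 99.1, 111 and 121 in MFAP5 samples, against 138, 141 and 130 in control samples. All MFAP5 arrays were lower, and the difference of -0.31 ± 0.19 did not pass (95% interval -0.72 to 0.10, limma adjusted p = 0.251, n = 3 each).

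The H4 genes encode nearly identical proteins, and the probe set annotated to H4C11 showed the largest difference of all histone probe sets tested. It had signals of 174, 160 and 151 in MFAP5 samples, against 370, 373 and 402 in control samples. Every MFAP5 array lay far below every control array. The difference was -1.24 ± 0.14, with a 95% interval of -1.54 to -0.94 (limma adjusted p = 0.000153, n = 3 each), and the call was kept in all 14 alternatives that tested it, with differences from -1.38 to -1.03. This probe set is of the _x_at type, so RNA of other H4 genes may add to it, and H4C11 itself lies between H2BC14 and H4C12. H4C8, the other H4 gene tested, had signals of 77.2, 128 and 94.9 in MFAP5 samples, against 110, 109 and 80.3 in control samples on its brighter probe set. Its groups overlapped, with a difference of -0.01 ± 0.25 (95% interval -0.57 to 0.56, limma adjusted p = 0.984, n = 3 each). The dimmer probe set of H4C8 did not pass either (-0.25, limma adjusted p = 0.563).

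**Figure D3:**
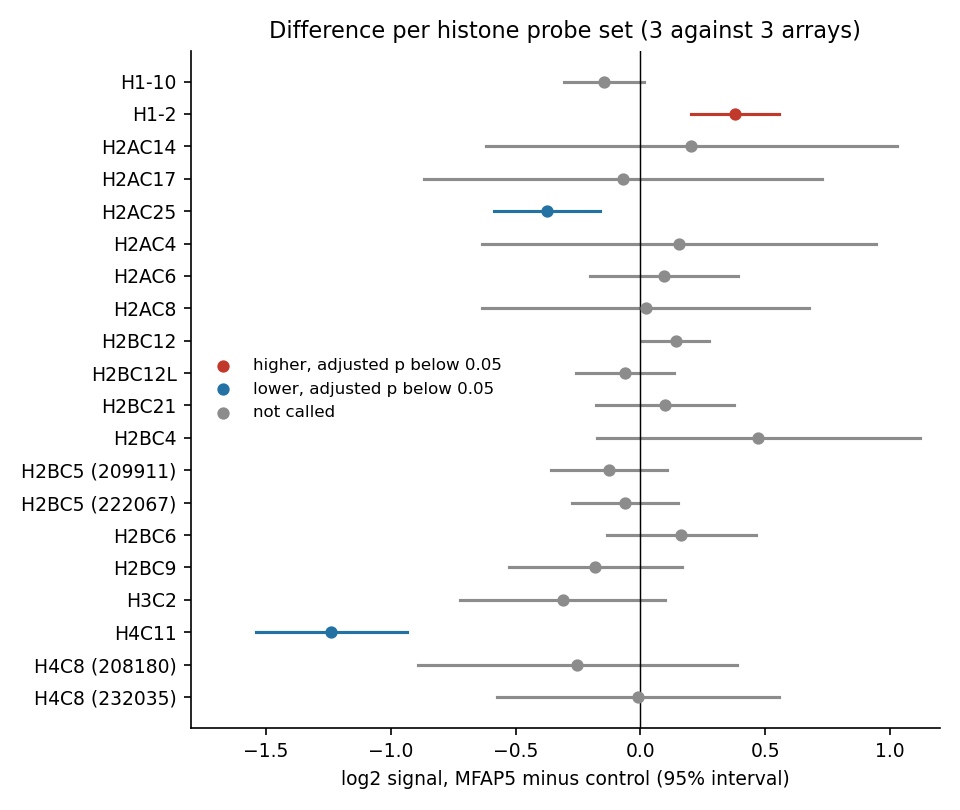
Difference in log2 signal, MFAP5 minus control (horizontal axis, with 95% intervals), of the 20 tested histone probe sets, 3 against 3 arrays. H1-2 lies right of 0, H2AC25 and H4C11 lie left of it, and the dim probe sets have the widest intervals.

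Precision followed brightness. The 8 tested probe sets above the 75% quantile of brightness had a standard deviation within groups of 0.05 to 0.18 on the log2 scale and intervals of ± 0.14 to 0.30. The other 12 had 0.09 to 0.62 and intervals of ± 0.28 to 0.82. The standard deviations of these sets overlap, and the intervals also draw on the intensity trend of the fit. At the same standard deviation of 0.11, the interval was ± 0.41 for H3C2 and ± 0.28 for the brighter H2BC21. H2AC4, H2AC14 and H2AC17 had the widest intervals. Theirs, and those of H2AC8, H2BC4 and the dimmer H4C8 probe set, reached further than 1.5-fold to either side of the estimate. A difference of that size was therefore not reliably detectable in them with these arrays. The intervals are not adjusted for the number of probe sets, and a call asks for more.

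A further 20 probe sets were annotated to several histone genes at once and so belong to no single gene. Of the 14 tested, 4 fell, 0 rose and 10 were not called (28.6% called; limma, with 0 higher and 5 lower at an unadjusted p below 0.05). This share is near the 25.2% called of all probe sets tested (11.8% lower). Since 3 of the 14 probe sets are annotated to the same 14 H4 genes, they are not independent. Of the 14 differences, 12 were negative, against 13029 of 27307 over all probe sets tested. Their median was -0.29, against 0.02 over all probe sets tested. A probe set annotated to 14 H4 genes had signals of 165, 265 and 132 in MFAP5 samples, against 363, 372 and 287 in control samples. All MFAP5 arrays were lower, although MFAP5 replicate 2 came close to control replicate 3 (difference -0.91 ± 0.24, limma adjusted p = 0.0189, n = 3 each).

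Another probe set of the same 14 H4 genes was among the brightest, with 25741, 22821 and 22406 in MFAP5 samples, against 30633, 31203 and 24965 in control samples. Here the groups overlapped, since MFAP5 replicate 1 exceeded control replicate 3 (difference -0.29 ± 0.09, limma adjusted p = 0.0457, n = 3 each). The remaining tested probe set of these 14 genes was not called, with 87.3, 82.2 and 87.7 in MFAP5 samples, against 113, 80.97 and 77.5 in control samples (-0.06 ± 0.23, limma adjusted p = 0.885, n = 3 each). A probe set of 10 H3 genes had signals of 210, 268 and 253 in MFAP5 samples, against 367, 361 and 404 in control samples. A probe set of 2 H2B genes had signals of 189, 217 and 164 in MFAP5 samples, against 259, 339 and 259 in control samples. In both, every MFAP5 array was below every control array (differences -0.64 ± 0.14 and -0.59 ± 0.17, limma adjusted p = 0.00807 and 0.0311, n = 3 each). The count of 4 lower probe sets depended on single arrays: it was 2 without MFAP5 replicate 1 and 1 without MFAP5 replicate 3, control replicate 1 or control replicate 2. The share of all probe sets called lower also fell, from 11.8% to 10.1%, 8.8%, 7.87% and 7.91% in these fits, in that order.

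**Figure D4:**
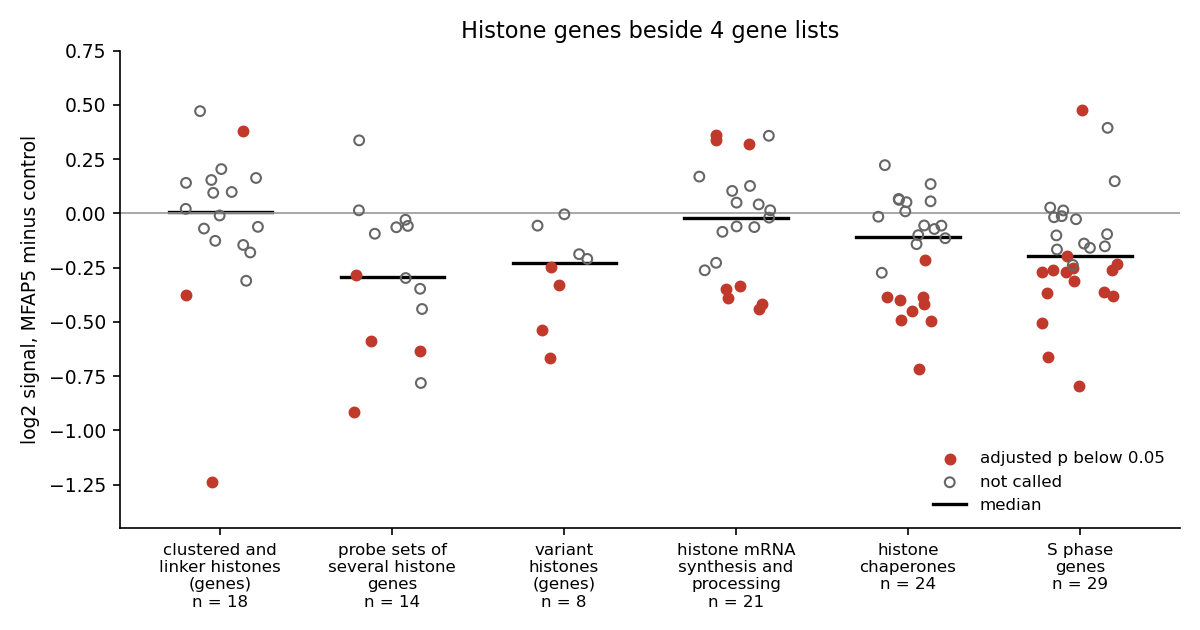
Difference in log2 signal, MFAP5 minus control, of the 18 histone genes tested, the 14 shared histone probe sets and the tested genes of 4 lists (replacement histones, histone mRNA processing, chaperones and S phase). Each point is a gene or probe set, filled points passed the test and lines are medians; the medians of the shared probe sets and of the replacement histones lie lowest.

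Replacement or variant histones are encoded outside the clustered families, and several are made independently of DNA synthesis. Of 19 listed genes 8 were tested, and 4 of them fell, 0 rose and 4 were not called (limma, with 0 higher and 4 lower at an unadjusted p below 0.05; 29.9% of all genes were called, 15.3% lower). Their median difference was -0.23, against -0.01 over all genes. H2AX, the variant phosphorylated at DNA breaks, had signals of 2217, 2182 and 1985 in MFAP5 samples, against 2899, 3157 and 3192 in control samples. All MFAP5 arrays were lower, by 1.45-fold (difference -0.54 ± 0.07, limma adjusted p = 0.000623, n = 3 each), while its other probe sets past the threshold were not called.

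CENPA, the H3 variant of centromeres, had signals of 721, 816 and 640 in MFAP5 samples, against 1356, 1112 and 999.9 in control samples. Again no array of either group crossed into the other, and CENPA was 1.59-fold lower with MFAP5 (difference -0.67 ± 0.13, limma adjusted p = 0.00416, n = 3 each). H2AZ2 (-0.33, adjusted p = 0.0409) and H2AJ (-0.25, adjusted p = 0.0351) fell by smaller amounts. Averaged over all probe sets of the gene neither passed, with -0.10 for H2AZ2 (limma adjusted p = 0.237) and -0.01 for H2AJ (limma adjusted p = 0.963). H2AZ1, which replaces H2A near transcription starts, averaged 17802 ± 748 in MFAP5 and 17873 ± 1289 in control samples (mean ± SD, limma adjusted p = 0.974, n = 3 each). H3-3A, which encodes the replacement histone H3.3, had a difference of -0.21 (limma adjusted p = 0.339), and H3-3B had no probe set of its own. Without MFAP5 replicate 2 or 3 or control replicate 1 or 2, 2 genes of this list were lower rather than 4, as also without a brightness filter or the intensity trend. The share of all probe sets called lower also fell, from 11.8% to between 7.76% and 8.8% without those arrays. It was 4.62% without a filter and 8.06% without the trend.

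Of 21 genes for the transcription and end processing of histone mRNA, 3 were higher, 5 lower and 13 not called (38.1% called, against 29.9% of all genes, with 14.6% higher and 15.3% lower). Their median was -0.02, against -0.01 over all genes. Above the 75% quantile of brightness, where 17 of the 21 lay, 38.5% of all probe sets were called, near the share of this list. SLBP, which binds the stem-loop of histone mRNA, had signals of 6561, 7152 and 7154 in MFAP5 samples, against 6648, 6251 and 6510 in control samples. The groups overlapped through MFAP5 replicate 1, and SLBP did not pass (0.10 ± 0.06, limma adjusted p = 0.259, n = 3 each). NPAT, the coactivator of histone gene transcription, did not pass either (0.04 ± 0.11, limma adjusted p = 0.81, n = 3 each). MIF4GD, a partner of SLBP in translation (0.36, adjusted p = 0.00614), CASP8AP2, a protein of histone locus bodies (0.34, adjusted p = 0.0419), and the uridylyl transferase TUT7, named after its values were seen (0.32, adjusted p = 0.0229), rose. The other 4 tested probe sets of TUT7 were not called.

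The cleavage endonuclease CPSF3, which cuts histone and polyadenylated mRNA precursors, averaged 2041 ± 42 in MFAP5 and 2723 ± 94 in control samples (mean ± SD, n = 3 each), 1.33-fold lower with MFAP5 (limma adjusted p = 0.00131). The cap-binding subunit NCBP1 (-0.39, adjusted p = 0.00356), the Cajal body protein COIL (-0.44, adjusted p = 0.0295) and the cleavage factor CSTF2 (-0.35, adjusted p = 0.0259) also fell, as did SRRT, named after its values were seen (adjusted p = 0.00245). The other tested probe sets of COIL, CSTF2 and SRRT were not called. With centring on hybridisation controls 0 of these genes were higher and 4 lower. With centring on array medians 0 were higher and 6 lower. Without MFAP5 replicate 3 or control replicate 2, 1 was higher and 3 lower, and without MFAP5 replicate 2 or control replicate 1, 2 were higher and 3 lower. In these fits without 1 array, 9.27% to 10.4% of all probe sets were higher and 7.76% to 8.8% lower, against 13.5% and 11.8%. With centring on hybridisation controls these shares were 7.92% and 7.68%, and with centring on array medians 8.43% and 21.9%.

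Of 24 histone chaperones and import factors, which carry new histones to DNA, 9 fell, 0 rose and 15 were not called (limma, with 0 higher and 10 lower at an unadjusted p below 0.05). This was 37.5% called, against 29.9% of all genes (15.3% lower), and the median was -0.11, against -0.01. Above the 75% quantile of brightness, where 21 of the 24 lay, 38.5% of all probe sets were called (20.7% lower). The share of chaperones called was thus near that of probe sets of like brightness. ASF1A, a chaperone of H3 and H4, had signals of 949.5, 829 and 825 in MFAP5 samples, against 1506, 1486 and 1285 in control samples. The groups were far apart, and ASF1A was 1.64-fold lower with MFAP5 (limma adjusted p = 0.000525, n = 3 each). SSRP1, a subunit of the FACT complex, was 1.41-fold lower, the importin IPO4 1.40-fold, VPS72, which handles H2A.Z, 1.37-fold, HJURP, the chaperone of CENPA, 1.33-fold, and DAXX, a chaperone of H3.3, 1.32-fold (limma adjusted p from 0.000643 to 0.0414). The other tested probe set of DAXX was not called. Nor were those of NASP and SUPT16H, which fell on their brightest probe set and were named after their values were seen. Those of ASF1A and SSRP1 were lower too.

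S phase genes were read because most clustered histone mRNA is made in that phase. Of 29 tested, 14 fell, 1 rose and 14 were not called (51.7% called, against 29.9% of all genes, with 14.6% higher and 15.3% lower). Their median was -0.19, against -0.01 over all genes. All 29 lay above the 75% quantile of brightness, where 38.5% of all probe sets were called (17.7% higher and 20.7% lower). CCNA2, the cyclin of S phase and G2, had signals of 1455, 1461 and 1483 in MFAP5 samples, against 2617, 2578 and 2441 in control samples. The groups were far apart, and CCNA2 was 1.74-fold lower with MFAP5 (limma adjusted p = 2.79e-05, n = 3 each). ORC1, of the origin recognition complex, was 1.58-fold lower, the primase subunit PRIM1 1.42-fold, the helicase subunit MCM7 1.30-fold and the DNA ligase LIG1 1.29-fold (limma adjusted p from 0.000541 to 0.0362). Of the lower genes named after their values were seen, MCM10, RRM1, RRM2 and GINS2 had other tested probe sets that were not called. For MCM4, 1 of 3 others was lower, and the others of CCNA2, MCM5, MCM7 and TK1 were lower too.

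CCNE1, the cyclin of entry into S phase, was the gene of this list that rose, at 1605 ± 151 in MFAP5 and 1156 ± 151 in control samples (mean ± SD, limma adjusted p = 0.0107, n = 3 each). PCNA, the sliding clamp of DNA polymerase, had signals of 8845, 10701 and 10677 in MFAP5 samples, against 9117, 8787 and 9265 in control samples. Its groups overlapped through MFAP5 replicate 1, and it did not pass (0.15 ± 0.08, limma adjusted p = 0.204, n = 3 each). Without that array the difference was 0.24 and passed (limma adjusted p = 0.029). The number of lower S phase genes ranged from 6 to 12 when 1 array was left out (6 without MFAP5 replicate 3 or control replicate 1, 7 without MFAP5 replicate 2 or control replicate 2), and was 5 with centring on hybridisation controls. Of all probe sets, 7.76% to 11.4% were lower without 1 array and 7.68% with that centring, against 11.8% in the main fit. The part of the S phase genes in the differences of the histone probe sets was not tested.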

How the data were processed

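Total RNA of 3 MFAP5 and 3 control samples was amplified and labelled as biotinylated cRNA, per the labels' protocols. The authors deposited 1 linear intensity per probe set and array, and the submitters' processing notes name MAS5. The version is not given in the sources used here. Each array had the same trimmed mean, so the values were used without further scaling, and a shift common to most transcripts does not show in them.

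Of 54675 probe sets, 62 Affymetrix controls were left out. Gene symbols came from the platform annotation (41091 probe sets with 1 symbol, 1801 with several, 11721 with none listed), and probe sets with several histone symbols were counted apart. Signals were taken to log2 with nothing added. Probe sets with a mean below the median were removed, which left 27307. MFAP5 was set against control with limma 3.58.1 (lmFit, eBayes with an intensity trend, 4 residual and 6.15 prior degrees of freedom; R 4.3.3), two-sided, with Benjamini-Hochberg adjustment over all 27307 at 0.05. The brightest probe set stood for a gene. Samples were grouped by their titles. Correlations of the deviations of same-numbered samples were 0.09, -0.01 and 0.17, and those of differently numbered samples -0.18 to 0.10. The highest value, 0.17, was between same-numbered samples, and the ranges overlap. Deviations from a group mean cancel within each group, so these correlations cannot decide whether equal numbers mark pairs. The main fit did not take replicate numbers as pairs.

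The histone genes, the lists and the naming rule were chosen with earlier results of these data known. The rule gave in full each histone gene called and, per family, the one with the largest difference and the brightest. From each list it took up to 6 called genes with the largest differences, and always SLBP, NPAT, H2AZ1, H2AX, H3-3A, H3-3B, CENPA and PCNA. Counts over the shared probe sets and list genes under the alternatives were added after seeing the data. On simulated data with 200 of 27307 probe sets changed, 0% of the 1.25-fold, 30% of the 1.5-fold, 46% of the 2-fold and 88% of the 4-fold changes were recovered, and 4 of 86 calls were false. The simulation changed far fewer probe sets than the 25.2% called in the real data. Its adjustment was therefore stricter, and these rates do not carry over to the comparison reported here. Alternatives changed the scaling, the filter, the trend, the probe set rule, an added 50 and the arrays included.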

Additional observations from a re-analysis of the deposited data

How the results depend on the processing

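The 3 calls among histone genes became 1 (0 higher, 1 lower) with centring on hybridisation controls (15.6% of all probe sets were called there), where H1-2 (0.34, limma adjusted p = 0.142) and H2AC25 were lost. The count lower was 1 rather than 2 among probe sets above the 75% quantile of brightness (8 tested), without the intensity trend, and without the _x_at and _s_at probe sets (8 tested). The first and the last of these no longer tested H4C11. Of all probe sets, 20.7% were lower above the 75% quantile and 8.06% without the trend, against 11.8% in the main fit. Leaving out 1 array gave 2 to 3 called, 1 higher and 1 to 2 lower, and 17.0% to 24.4% of all probe sets were called. Centring on array medians, which moved the median of all probe sets by -0.14, added H1-10 as lower (-0.28, adjusted p = 0.0134), for 4 called (30.3% of all probe sets). The median difference of the histone probe sets was -0.04, and it was -0.17 with that centring, -0.10 with quantile normalization and -0.093 to 0.006 without 1 array. With the replicate block, although the main fit did not take the numbers as pairs, 3 remained called. The share called of all probe sets was 29.3% there, against 25.2% in the main fit. Without a filter the same 3 of 58 were called, against 10.3% of all 54613 probe sets. H1-2 was called in 14 of 15 alternatives and H2AC25 in 10 of 15. Over the single histone genes, 252 values kept their side of the threshold, 6 lost a call and 1 gained one. Over the named list genes, 347 kept it, 56 lost a call and 1 gained one, with H2AJ, H2AZ2, CASP8AP2, DAXX and LIG1 called in 7 of 15 alternatives, CSTF2 in 8, COIL in 9, CCNE1 in 14 and MIF4GD in 13. Among shared probe sets, 0 were higher and 1 to 5 lower. Centring on array medians gave 19 lower S phase genes and 14 lower chaperones, and 21.9% of all probe sets were lower there. Signal near that of the Bacillus controls limits the dim probe sets, since 18 of the 58 were above it on every array.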

Other observations

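Among the 38 histone probe sets below the brightness threshold, 5 had groups that did not overlap, against 12.3% of all probe sets below it. H2BC3, an H2B gene of the chromosome 6 cluster, had signals of 6.58, 3.33 and 18.4 in MFAP5 samples, against 38.8, 38.5 and 27.04 in control samples. H3C7, an H3 gene of that cluster, had signals of 27.3, 21.7 and 14.4 in MFAP5 samples, against 36.7, 47.7 and 40.0 in control samples. In both genes all MFAP5 arrays were lower, at signals near those of the Bacillus controls. H2BC3 exceeded the brightest of these on 0 MFAP5 arrays and 1 control array, and H3C7 on 1 and 2. Tested without a filter, neither passed (log2 differences of -2.22 and -1.01, limma adjusted p = 0.0903 and 0.244). The others were the second probe set of H2AC25, a probe set of H2AC15, with MFAP5 lower, and 1 of H1-7, with MFAP5 higher. The antisense RNA H1-10-AS1 had signals of 6.96, 3.97 and 2.23 in MFAP5 samples, against 6.64, 3.71 and 3.84 in control samples. All were below the brightest Bacillus control of their array.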
